A study of Rattus norvegicus with 192 samples.

Results

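Growth hormone (Gh1), prolactin (Prl) and 3 genes that control them, Pou1f1, Ghrhr and Drd2, were followed through the pituitary, hypothalamus, thyroid and liver of adult male rats. These 5 of the 17483 genes in the count tables were chosen by symbol for their place in the pathway, with earlier results of these data known. Every one of them had counts in all 48 pituitary libraries. The rats were wild-type Crl:CD(SD) animals dosed by gavage for 7 days, on postnatal days 56 to 62. They received 3 mg/kg/day PFOS (perfluorooctane sulfonate, a fluorinated surfactant) together with 8 mg/kg/day of the antibiotic vancomycin, PFOS alone, vancomycin alone, or corn oil as vehicle. RNA was counted by 3' bulk RNA barcoding (BRB-seq), in which each sample is tagged with a barcode before all samples of a plate are pooled, with 12 libraries per treatment and tissue. The labels give each library its own number and do not say whether organs were pooled, so p-values measure the spread between these libraries.

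Somatotropes of the anterior pituitary make growth hormone and lactotropes make prolactin. Both arise from a lineage that needs the transcription factor POU1F1 (Pit-1), which binds the promoters of both hormone genes. Hypothalamic growth hormone-releasing hormone acts on somatotropes through the receptor GHRHR, while somatostatin holds secretion back. Prolactin release is held back by hypothalamic dopamine acting on the lactotrope receptor DRD2. Growth hormone drives Igf1 expression in the liver, and its pulsatile pattern in male rats sets the level of several hepatic cytochrome P450 enzymes.

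RefSeq promoter windows of the assembly GRCr8 were at hand for 3 of the 5 genes, Prl, Ghrhr and Drd2. The 250 bases before the start set by these windows are shown for Prl (chr17:38298218-38298467, minus strand) and Drd2 (chr8:58605153-58605402, plus strand). They stand far apart in base composition, and the first holds a match to the sequence that POU1F1 is known to bind. Capitals mark that match, the letters TATNCAT searched on both strands.
Prl: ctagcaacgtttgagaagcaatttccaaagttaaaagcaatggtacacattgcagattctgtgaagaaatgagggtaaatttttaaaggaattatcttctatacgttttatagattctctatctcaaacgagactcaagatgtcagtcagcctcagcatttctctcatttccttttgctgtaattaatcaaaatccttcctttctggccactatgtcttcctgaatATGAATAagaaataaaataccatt
Drd2: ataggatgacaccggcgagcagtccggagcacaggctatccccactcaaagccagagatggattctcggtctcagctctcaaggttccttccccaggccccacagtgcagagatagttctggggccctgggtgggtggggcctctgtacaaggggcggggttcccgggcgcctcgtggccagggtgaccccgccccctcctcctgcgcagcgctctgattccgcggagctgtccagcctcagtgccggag
The Prl match lay 24 to 18 bases before the start, on the strand opposite to the gene, and neither the Drd2 window nor the 2 Ghrhr windows held these letters. That start is the one of the promoter window. The gene record of Prl begins at position 38298234 on the minus strand, so the last printed bases lie inside it. Among all 33469 windows of the same length, 250 bases before to 50 after the start, 9.88% held at least 1 match. The full windows had a GC content of 33% for Prl, 53.3% and 55.7% for Ghrhr and 67.3% for Drd2, against a median of 51.7% over all windows. A match describes letters and does not show binding in these animals.

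Pituitary libraries held 231929 to 2804779 counts, with a median of 517282, and all 48 passed the minimum of 100000 counts. In the other tissues 14 of the 192 libraries fell below that minimum and were left out, 11 of them in liver. Summed markers of the other pituitary cell types were present in every pituitary library, from 16303.9 to 36531 CPM (counts per 1000000 counts of the library) for gonadotropes and from 1558 to 30910.4 CPM for corticotropes and melanotropes. The gonadotrope list includes Cga, a subunit gene also listed for thyrotropes, which averaged 18143 CPM over the 48 pituitary libraries. Thyroid markers summed to at most 4.06 CPM, hypothalamus markers to at most 76.4 CPM and liver markers to at most 306 CPM there. In the hypothalamus, PFOS library 31 stood apart, with 4.86 CPM of oxytocin (Oxt), 0.972 CPM of vasopressin (Avp) and 7.78 CPM of Pmch, where the lowest of the other libraries had 359, 158 and 401 CPM. Slc17a6, the glutamate transporter gene of the same marker list, ran the other way, at 389 CPM in this library against 104 to 216 CPM in the others. Its 8 summed markers came to 445 CPM against 1553 CPM in the next lowest library, and values without it stand beside the hypothalamic levels and tests. Each treatment filled its own plate row in each tissue, so row and treatment cannot be told apart. In whole glands, a smaller number of cells of a type and less RNA per cell cannot be told apart either.

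Gh1 and Prl RNA together took 33.7% ± 4.76 (SD, n = 48) of all pituitary counts. The share was 31.8% ± 6.23 in combination libraries, 34.8% ± 4.53 under PFOS, 32.8% ± 2.53 under vancomycin and 35.4% ± 4.65 under vehicle (SD, n = 12 each). The 22 other prolactin-family genes had 10 counts in all pituitary libraries against 1342372 for Prl, and whether reads of these paralogs were assigned to Prl was not tested.

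**Figure D1:**
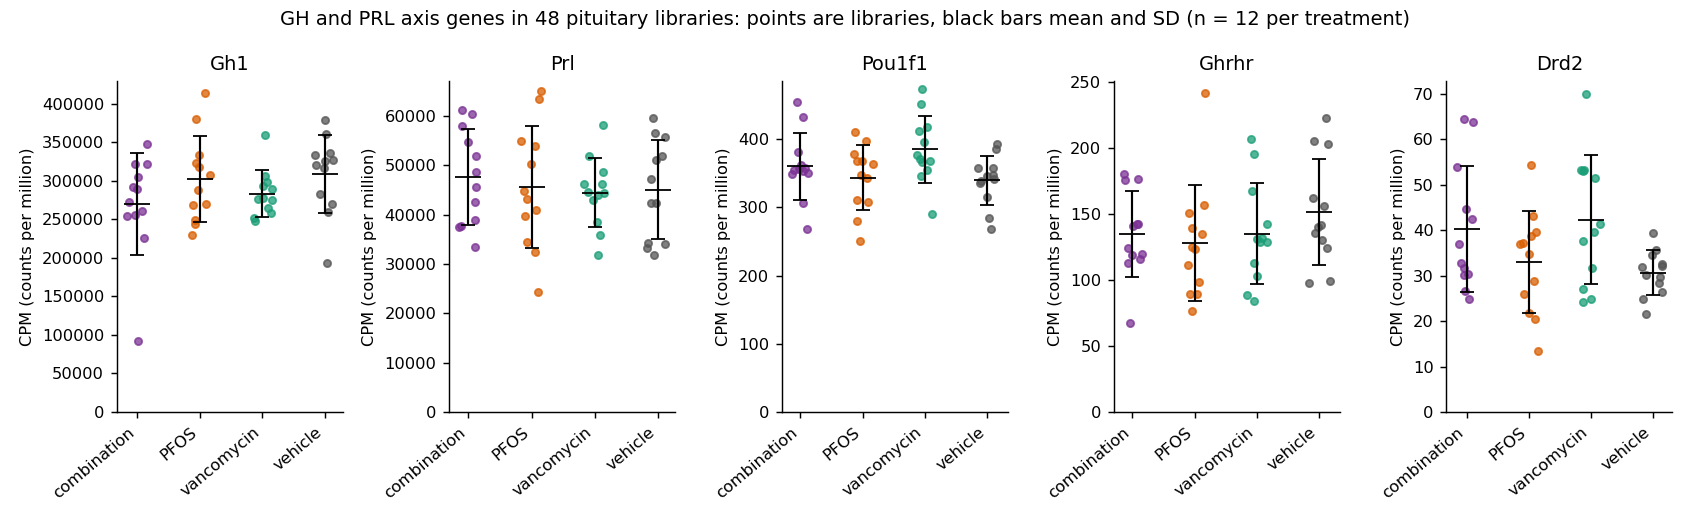
Level of each gene in CPM (vertical axes, starting at 0) in the 48 pituitary libraries, by treatment; points are libraries and black bars the mean and SD of 12 libraries. The 4 treatments overlap for every gene, and a combination library at 92267 CPM lies below all others for Gh1.

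None of the 5 genes passed the test in any pituitary comparison. Gh1, the gene of the hormone itself, ran from 92267 to 348239 CPM with a median of 280845 in combination libraries. It ran from 229139 to 413599 CPM with a median of 298186 under PFOS. Under vancomycin it ran from 248043 to 359626 CPM with a median of 277165, and under vehicle from 193826 to 379192 CPM with a median of 322923. All 4 ranges overlap, and the lowest library of all belongs to the combination group. Group means were 269983 ± 65960.1 CPM in combination, 302194 ± 55755 in PFOS, 283395 ± 30342 in vancomycin and 308831 ± 50212 in vehicle libraries (SD, n = 12 each).

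Prl, the lactotrope hormone gene, had medians of 47136 CPM in combination, 44007 CPM in PFOS, 44518 CPM in vancomycin and 44869.5 CPM in vehicle libraries. Its lowest library, at 24360.3 CPM, and its highest, at 65073 CPM, both came from the PFOS group, whose range spans those of the other 3 groups. The Prl means were 47577 ± 9740.39 CPM in combination, 45639 ± 12381 in PFOS, 44466 ± 7009 in vancomycin and 45070.3 ± 10051.5 in vehicle libraries (SD, n = 12 each).

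Pou1f1, the lineage factor, had the smallest spread of the 5, with a coefficient of variation of 12.8% within treatment groups. Its medians were 356 CPM (range 268 to 455) in combination, 355 CPM (251 to 409.6) in PFOS, 373 CPM (290.1 to 474) in vancomycin and 343 CPM (269 to 392) in vehicle libraries. Ghrhr, the receptor for growth hormone-releasing hormone, had medians of 132 CPM (67.6 to 179.9) in combination, 124 CPM (76.3 to 242) in PFOS, 129.8 CPM (84.0 to 206) in vancomycin and 141 CPM (97.9 to 223) in vehicle libraries. The 4 groups overlap for both genes. Drd2, the dopamine receptor of lactotropes, had medians of 34.9 CPM (24.96 to 64.4) in combination, 35.9 CPM (13.5 to 54.4) in PFOS, 40.4 CPM (24.2 to 70.02) in vancomycin and 31.1 CPM (21.5 to 39.5) in vehicle libraries. The Drd2 groups overlap too, and the vehicle libraries were the most alike, with an SD of 4.95 CPM against 11.3 to 14.2 CPM in the other 3 groups (n = 12 each).

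Depth sets how precisely each gene was measured. A pituitary library held a median of 152730.0 counts of Gh1 and 23209.5 of Prl, so that counting error averaged 0.26% and 0.679% of the count, while the levels varied by 17.9% and 21.8% within groups. Pou1f1 had a median of 174 counts and a counting error of 7.53%. Ghrhr had a median of 67 counts and a counting error of 12.3%, beside a variation of 28.4% within groups. Drd2 had a median of 19 counts, from 7 to 70, and counting error alone came to 24.2% of its value against a variation of 31.96%. These figures cover counting error only.

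The tests asked how each treatment, PFOS on top of vancomycin, their interaction and the effect of each compound over both backgrounds moved gene expression. By edgeR's quasi-likelihood test with Benjamini-Hochberg adjustment over 4380 genes, 0 of the 5 genes were called for PFOS against vehicle, where 1.19% of all genes were called. The count was also 0 of 5 for vancomycin against vehicle (background 0.0228%), for the combination against vehicle (background 1.37%) and for the pooled PFOS effect (background 1.44%). It was 0 of 5 for PFOS in vancomycin-treated rats, for the interaction and for the pooled vancomycin effect, and the background in each of these 3 was 0%. DESeq2 called 0 of the 5 in every comparison as well. At an unadjusted p under 0.05 there were 2 of the 5 genes in the pooled vancomycin effect and 0 in the other 6 comparisons, beside 145 of 4380 genes in that comparison and 134 to 430 in the others.

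The intervals show how large a change in counts, scaled for library size, these data leave room for. Gh1 counts climbed less than library depth, as given below. Whether its fold changes and intervals are narrowed by this was not tested. PFOS over both backgrounds gave a log2 fold change of -0.03 ± 0.09 (SE) for Gh1, with a 95% interval of -0.21 to 0.15. It gave 0.08 ± 0.09 for Prl, with an interval of -0.10 to 0.26. For Pou1f1 it gave -0.02 ± 0.06, with an interval of -0.13 to 0.09, the narrowest of the 5. Ghrhr was at -0.11 ± 0.11 (-0.33 to 0.11) and Drd2 at 0.003 ± 0.13 (-0.26 to 0.27). The interaction, which asks whether PFOS acted differently in vancomycin-treated rats, had wider intervals, from -0.32 to 0.12 for Pou1f1 to -0.64 to 0.40 for Drd2.

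**Figure D2:**
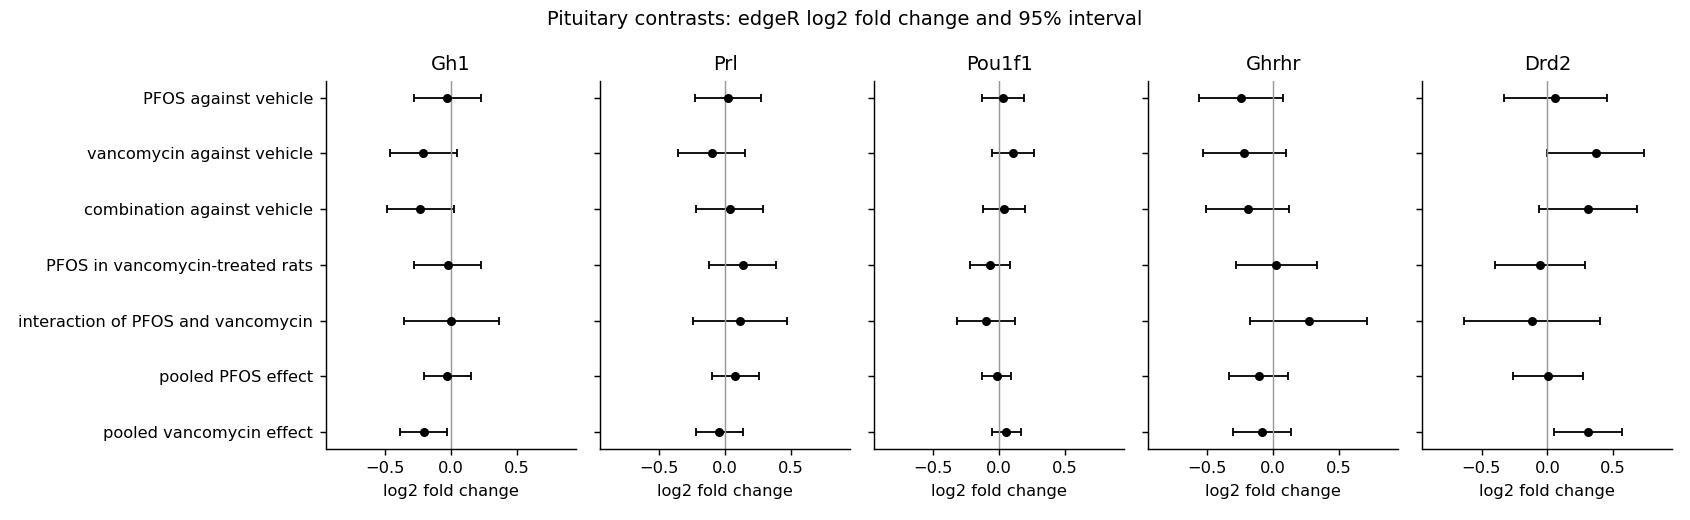
Log2 fold change of each gene in the 7 pituitary comparisons (horizontal axes), with the 95% interval from edgeR as bars and a line at 0. The only intervals that lie wholly on 1 side of 0 are those of Gh1 and Drd2 in the pooled vancomycin effect, and neither passes the adjustment over all genes.

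The 2 genes with a low unadjusted p were Drd2 and Gh1, both for vancomycin over both PFOS backgrounds. Drd2 averaged 41.3 ± 13.8 CPM in the 24 vancomycin-treated libraries and 31.8 ± 8.61 CPM in the 24 others (SD). Its log2 fold change was 0.31 ± 0.13 (95% interval 0.05 to 0.57), with an unadjusted p of 0.0202 and an edgeR adjusted p of 0.99999, and 15 of the 24 vancomycin-treated libraries lay above the median of the others. Against vehicle, Drd2 was at 0.31 ± 0.19 under the combination and at 0.37 ± 0.19 under vancomycin, and neither passed. Gh1 averaged 276689 ± 50675.6 CPM in the vancomycin-treated libraries and 305513 ± 51999.9 CPM in the others (SD, n = 24 each). Its log2 fold change was -0.21 ± 0.09 (95% interval -0.39 to -0.03), with an unadjusted p of 0.0244 and the same adjusted p, and 4 of the 24 vancomycin-treated libraries lay above the median of the others.

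Library depth differed between the groups, and with depth in the fit the Gh1 value shrank and the Drd2 value grew. The median total was 566031 counts in combination, 516188 in PFOS, 601960.5 in vancomycin and 376309.5 in vehicle libraries. With log2 depth as a covariate, the pooled vancomycin value of Gh1 was -0.05 ± 0.05, with an unadjusted p of 0.277, and that of Drd2 was 0.40 ± 0.12, with an unadjusted p of 0.00154 and an edgeR adjusted p of 0.174. The combination value of Gh1 against vehicle was -0.24 ± 0.13 as fitted, -0.15 ± 0.10 without the deepest library and -0.02 ± 0.07 with depth as a covariate. The part of depth in these values was otherwise not tested.

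**Figure D3:**
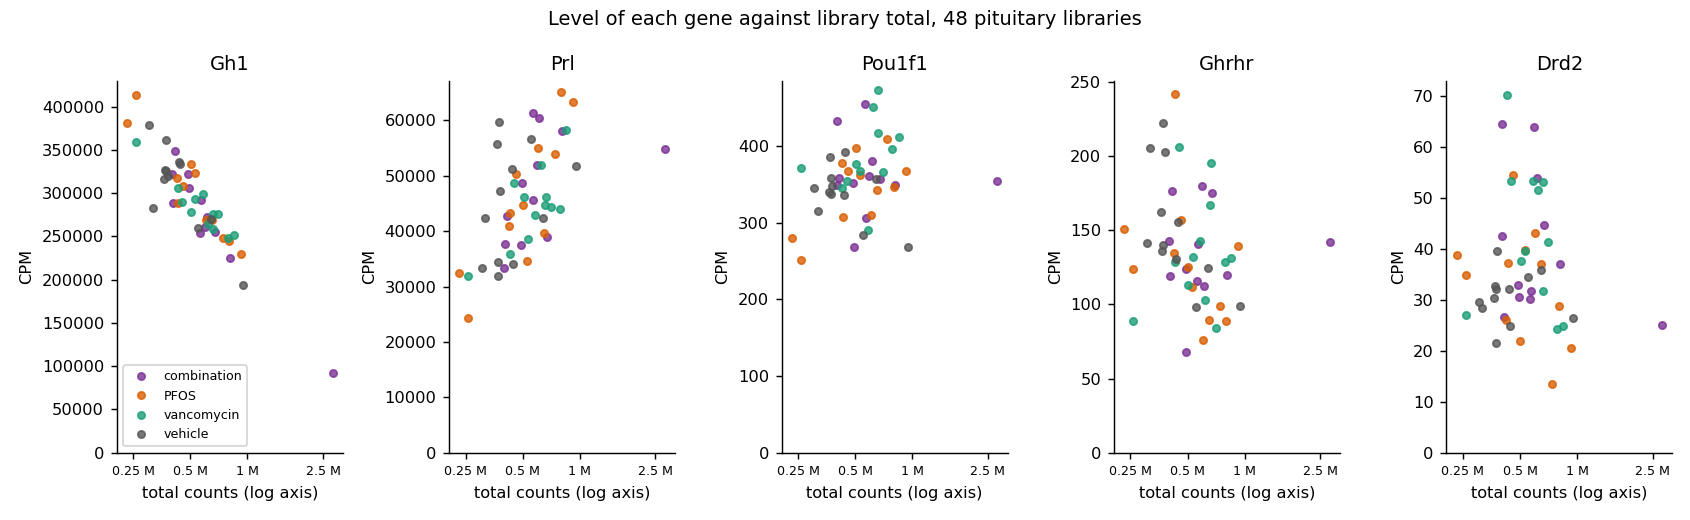
Level of each gene in CPM (vertical axes, starting at 0) against the total counts of the library (horizontal log axes), coloured by treatment, for 48 pituitary libraries. Gh1 lies lower in deeper libraries of every treatment, Prl tends higher, and the deepest library, from the combination group, has the lowest Gh1 level.

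Among the 5 genes, Gh1 had the closest relation between level and depth. Within treatment groups, log2 Gh1 CPM and log2 library total had a Pearson correlation of -0.92 and a Spearman correlation of -0.83 over 48 libraries (permutation p = 1e-05, the smallest possible, adjusted p = 0.00015 over 30 relations), and Pearson's r was -0.87 without the 2 libraries farthest from the median depth. Group by group, r was -0.98 for the combination, -0.94 for PFOS, -0.93 for vancomycin and -0.85 for vehicle (n = 12 each). Without the 2 libraries of each group farthest from its median depth, r was -0.79 for the combination, -0.88 for PFOS, -0.79 for vancomycin and -0.50 for vehicle. The vehicle relation rested on few libraries, and its Spearman correlation was -0.52 with a permutation p of 0.0837. For Prl the relation ran the other way, with r = 0.59 and rho = 0.60 over 48 libraries (permutation p = 4e-05 and 1e-05). Pou1f1, Ghrhr and Drd2 had r of 0.16, -0.18 and -0.29, and none of the 3 passed the adjustment. With CPM taken over counts other than Gh1 and Prl, r was -0.92 for Gh1, 0.37 for Prl, -0.29 for Pou1f1, -0.38 for Ghrhr and -0.46 for Drd2. Of these, Ghrhr (permutation, adjusted p = 0.0196) and Drd2 (adjusted p = 0.00382) then passed by r with the same sign as Gh1, while Pou1f1 did not. By rank Ghrhr passed (rho = -0.45, adjusted p = 0.0069) and Drd2 did not (rho = -0.33, adjusted p = 0.0576). Prl still passed with the opposite sign (adjusted p = 0.0222 for r and 0.0118 for rho).

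The same pattern shows in plain counts. Combination library 48, the deepest, held 258789 Gh1 counts among 2804779, or 9.23%. Vehicle library 7, the next deepest, held 183935 among 948968, or 19.4%, so that a total 2.96 times as large came with 1.41 times the Gh1 counts. At the shallow end, PFOS library 27 held 88280 Gh1 counts among 231929, or 38.1%, and PFOS library 33 held 107049 among 258823, or 41.4%. Over the 48 libraries, log2 Gh1 count climbed by 0.43 ± 0.03 (SE) per unit of log2 of the counts other than Gh1 and Prl, and by 0.51 ± 0.03 without the deepest library. A gene whose share does not move with depth would have a slope of 1.

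The slope was 1.13 ± 0.06 for Prl, 0.93 ± 0.04 for Pou1f1, 0.74 ± 0.08 for Ghrhr and 0.77 ± 0.10 for Drd2. Among 670 genes with a mean pituitary count of at least 100, the median slope was 0.95 and the 5th to 95th percentile ran from 0.65 to 1.45. Gh1 was the fourth lowest of these. Other hormone genes did not share it. Cga, the common subunit of the glycoprotein hormones, had a slope of 0.80, Lhb of 0.96, Tshb of 1.02, Fshb of 1.49 and Pomc, the corticotrope and melanotrope precursor, of 1.78.

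The count ratio of Gh1 to Prl within a library ranged from 1.68 in combination library 48 to 16.98 in PFOS library 33, with a median of 6.32. It averaged 6.03 ± 2.26 in combination, 7.48 ± 3.80 in PFOS, 6.62 ± 1.84 in vancomycin and 7.31 ± 2.52 in vehicle libraries (SD, n = 12 each), and the groups overlap. Of the 10 pairs among the 5 genes, only Gh1 and Prl were correlated across pituitary libraries after adjustment. Their within-group correlation of log2(CPM + 1) was r = -0.53 and rho = -0.61 (permutation, adjusted p = 0.0009 and 0.0001, n = 48), and r was -0.68 without the 2 libraries farthest from the median of Gh1. With CPM taken over counts other than Gh1 and Prl, r was -0.27 (permutation, adjusted p = 0.14) and rho -0.37 (adjusted p = 0.0633). There r was -0.46 without the 2 farthest libraries. The relation stayed negative but did not pass when the 2 hormones were kept out of the denominator. Prl and its activator Pou1f1 had r = 0.07 (adjusted p = 0.769), and Gh1 and Pou1f1 had r = -0.06 (adjusted p = 0.769). Gh1 and Ghrhr had r = 0.09, and Prl and Drd2 had r = -0.13, and neither passed the adjustment.

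The genes whose levels ran most like each of the 5 were found by Spearman's correlation of log2(CPM + 1) over the 48 libraries among 2589 genes. They share libraries and depth, so the values are a description. For Gh1 they were Zfp422 (rho = 0.67), Sra1, Tmed9, Cmtr1 and Pam, and Tmed9 also had a low slope on depth, of 0.55. For Prl they were Gabarapl2 (0.72), Rpl39l, Grcc10, Ctsl and Rps24. For Pou1f1 they were Ddx39b (0.59), Timm8b, Coq10b, Ndufa4 and Pck2. Ghrhr ran most like Htatsf1 (0.70), and also like Mrpl14, Frg1 and Ufsp2. Drd2 ran most like Atp6v0e1 (0.60), followed by Arl6ip1, Gprasp1, Gpm6a and Ndufb10.

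Other pituitary genes of the pathway were few in number above the filter. Of 39 genes for receptors and control of growth hormone and prolactin, 14 had enough counts to be tested, and 0 passed by edgeR in any of the 7 comparisons, with a median log2 fold change of -0.07 for the pooled PFOS effect against -0.0006 over all genes. Of 30 lineage factors 9 were tested, and of 19 granule and secretion genes 16 were tested, again with 0 passing by edgeR in any comparison. At an unadjusted p under 0.05 the 3 lists held 0 or 1 gene each per comparison, except the granule list, with 4 for the pooled PFOS effect and 3 each for the combination against vehicle and PFOS in vancomycin-treated rats, of 16 genes. Over all genes the share was 9.82% for the pooled PFOS effect, 7.88% for the combination and 6.74% for PFOS in vancomycin-treated rats. Some other receptors of the list were sparse. The somatostatin receptors Sstr2 and Sstr5 had 55 and 17 counts over all 48 libraries, the ghrelin receptor Ghsr had 1 and the oestrogen receptor Esr1 had 12. The thyrotropin-releasing hormone receptor Trhr, which drives lactotropes as well as thyrotropes, averaged 18.1 ± 7.88 CPM (SD, n = 48). Gnas, the stimulatory G protein subunit behind GHRHR, averaged 1850 ± 239.6 CPM.

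The hypothalamus supplies the ligands of these receptors. Ghrh averaged 18.03 ± 5.67 CPM in combination, 18.8 ± 7.48 in PFOS, 15.8 ± 4.45 in vancomycin and 22.5 ± 8.56 in vehicle libraries (SD, n = 11 for the combination and 12 for each other group). Sst, the somatostatin gene, averaged 332 ± 46.1 CPM in combination, 299 ± 99.0 in PFOS, 323 ± 55.9 in vancomycin and 366 ± 53.6 in vehicle libraries. Th, which makes the rate-limiting enzyme of dopamine synthesis, averaged 29.8 ± 12.1 CPM in combination, 29.6 ± 11.5 in PFOS, 38.3 ± 19.4 in vancomycin and 31.8 ± 13.6 in vehicle libraries. Trh averaged 243 ± 34.2 CPM in combination, 191 ± 64.2 in PFOS, 206 ± 37.7 in vancomycin and 214 ± 39.1 in vehicle libraries. The groups overlap for each of these genes, and the lowest value of all 4 came from PFOS library 31. Without it the PFOS means were 20.4 ± 5.51 CPM for Ghrh, 324 ± 47.5 for Sst, 31.8 ± 8.898 for Th and 206 ± 42.1 for Trh (SD, n = 11).

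Of 34 ligand and dopamine genes, 15 were tested in the hypothalamus, and edgeR called 0 of them for PFOS against vehicle (background 4.44%), for vancomycin against vehicle (background 0%), for the combination against vehicle (background 8.14%) and for the pooled PFOS effect (background 20.5%). DESeq2 called 0 in each of these too. At an unadjusted p under 0.05 there were 0 for PFOS and for the combination and 1 each for vancomycin and the pooled PFOS effect, of 15 genes. Over all genes that share was 20.6% for PFOS, 23.5% for the combination, 2.71% for vancomycin and 33% for the pooled PFOS effect. Without PFOS library 31, 1 of 14 genes tested passed for the combination against vehicle, beside a background of 8.92%, and 2 of 14 passed in the pooled PFOS effect, beside a background of 19%. Neither count stands out from its background, and the values of the 2 genes are given as single genes. Gal, the gene of galanin, a peptide known to act on prolactin and growth hormone release, was higher under the combination than under vehicle by 0.36 ± 0.11 on the log2 scale (edgeR adjusted p = 0.0229), and higher in the pooled PFOS effect by 0.30 ± 0.07 (adjusted p = 0.00406). Avp fell by 0.42 ± 0.15 in the pooled PFOS effect (adjusted p = 0.0442). With all libraries these values were 0.36 ± 0.20, 0.24 ± 0.14 and -0.48 ± 0.21, none of which passed. Without that library PFOS against vehicle called 54 genes in hypothalamus, against 293 with it. Ghrh, Sst, Th and Trh did not pass with or without it. The lowest unadjusted p among them was that of Ghrh under vancomycin against vehicle, at a log2 fold change of -0.49 ± 0.21 (p = 0.0225, edgeR adjusted p = 0.99998).

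The liver is the main target of growth hormone. Igf1 averaged 2273 ± 303 CPM in combination, 2273 ± 464 in PFOS, 2423 ± 254 in vancomycin and 2487 ± 311 in vehicle libraries (SD, n = 10, 8, 10 and 9). Its pooled PFOS log2 fold change was -0.12 ± 0.09, with an edgeR adjusted p of 0.554. Igfals, which encodes the subunit that holds IGF1 in the circulation, averaged 105 ± 47.1 CPM in combination, 103 ± 55.4 in PFOS, 101 ± 22.2 in vancomycin and 110.3 ± 47.5 in vehicle libraries. The growth hormone receptor Ghr averaged 71.8 ± 37.8 CPM in combination, 78.4 ± 36.7 in PFOS, 60.9 ± 14.9 in vancomycin and 67.2 ± 24.1 in vehicle libraries, and the binding protein gene Igfbp3 42.1 ± 25.9 CPM in combination, 46.02 ± 20.8 in PFOS, 46.6 ± 15.2 in vancomycin and 68.8 ± 59.04 in vehicle libraries. The groups overlap for all 4 genes.

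Of the 24 receptor, signalling and IGF genes, 8 were tested in liver, and edgeR and DESeq2 each called 0 for PFOS against vehicle (background 0.831% by edgeR), vancomycin against vehicle (background 0%), the combination against vehicle (background 0.769%) and the pooled PFOS effect (background 3.6%). At an unadjusted p under 0.05 there was 1 each for PFOS against vehicle and the pooled PFOS effect and 0 in the other 2, beside 10.9% of all genes for PFOS, 17.1% for the pooled PFOS effect, 3.05% for vancomycin and 9.54% for the combination. The median log2 fold change of the 8 in the pooled PFOS effect was -0.24, beside -0.01 over all genes. The prolactin receptor Prlr, with 175 counts over 37 libraries, and the growth hormone feedback genes Cish and Socs2, with 186 and 9 counts, were too sparse to be tested.

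Of 29 liver genes known to follow the sex pattern of growth hormone, 18 were tested. In the pooled PFOS effect 4 rose and 1 fell by edgeR, beside a background of 2.15% of genes higher and 1.45% lower. Cyp3a2 rose by 0.82 ± 0.12 on the log2 scale (adjusted p = 1.24e-05), Cyp4a2 by 0.84 ± 0.24 (0.0419), Sult1e1 by 0.98 ± 0.26 (0.0321) and Cyp2a2 by 0.31 ± 0.09 (0.0397), while Sult2a1 fell by 0.56 ± 0.15 (0.0291). The other 13 did not pass, and 11 of the 18 values lay above 0 and 7 below, with a median of 0.23 against -0.01 over all genes. In rat liver the 4 that rose are known as male-biased and Sult2a1, a steroid sulfotransferase, as female-biased. Among those that did not pass, the female-biased Cyp2a1 was at 0.46 ± 0.16 (adjusted p = 0.0976) and the male-biased Cyp2c13 at -0.17 ± 0.13 (adjusted p = 0.577). Cyp3a2 is also known to be induced by phenobarbital-type compounds, and Cyp4a2 is a known target of the receptor PPARα. Cyp3a2 averaged 4763 ± 732 CPM in combination, 4014 ± 914 in PFOS, 2614 ± 379 in vancomycin and 2261 ± 894 in vehicle libraries. Against vehicle only Cyp3a2 of the 18 passed, under the combination (1.07 ± 0.18, adjusted p = 0.000132) and under PFOS (0.81 ± 0.18, adjusted p = 0.0190). Cyp2c11, the enzyme that most defines the male pattern in rats, averaged 3964 ± 749.6 CPM in combination, 3429 ± 984 in PFOS, 3208 ± 573 in vancomycin and 2995 ± 598 in vehicle libraries, with a pooled PFOS log2 fold change of 0.23 ± 0.12 and an adjusted p of 0.31. Its female counterpart Cyp2c12 was at 0.32 ± 0.33 with an adjusted p of 0.701. Among the alternatives, only Cyp3a2 passed in the pooled PFOS effect without the filter and at a minimum of 500000 counts, and with all libraries kept Sult1e1 and Hnf4a passed and Cyp3a2 did not.

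Outside the pituitary, counts of the 5 genes were read against their pituitary level. Hypothalamus and pituitary libraries sat on the same plate, and whether reads passed between them was not tested. In the hypothalamus Gh1 averaged 4467 ± 707 CPM (SD, n = 47), or 1.53% of its pituitary mean, and Prl 243 ± 39.6 CPM, or 0.531%. Pou1f1 was at 0.409% and Ghrhr at 0.666% of the pituitary mean. Of the other pituitary hormone genes, Fshb at 0.509% and Pomc at 1.41% lay among these values, while Lhb at 2.26%, Cga at 3.16% and Tshb at 3.69% lay above them. Without PFOS library 31 the shares were 1.54% for Gh1, 0.532% for Prl, 0.412% for Pou1f1 and 0.619% for Ghrhr. PFOS library 31, near 0 in hypothalamic peptides, had 4056 CPM of Gh1 and 221 CPM of Prl, within the range of the other hypothalamus libraries. Drd2 lay higher against its pituitary level than the other 4 genes, with 4.95 ± 3.52 CPM over all 47 libraries, or 13.6% of its pituitary mean (13.8% without PFOS library 31), and had counts in 42 of them. Hypothalamic neurons are known to carry DRD2. PFOS library 31 had 0 Drd2 counts among 1028625, which allows up to 2.92 CPM (3 counts).

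**Figure D4:**
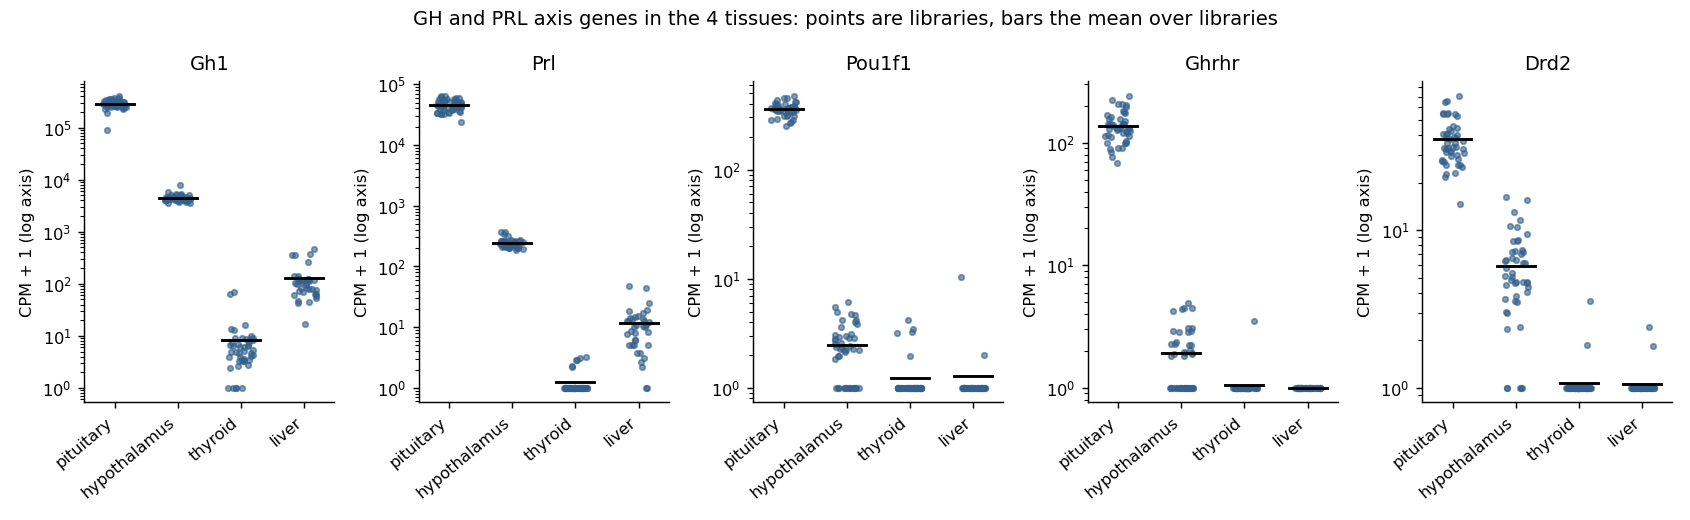
Level of each gene as CPM + 1 (vertical log axes) in the libraries of at least 100000 counts of the 4 tissues; points are libraries and bars the mean. Gh1 and Prl are lower by steps in hypothalamus, liver and thyroid, while Drd2 in hypothalamus lies closer to its pituitary level than the other 4 genes do.

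Hypothalamic Gh1 averaged 4510.4 ± 613 CPM in combination, 4484 ± 452 in PFOS, 4349 ± 502 in vancomycin and 4526 ± 1128 in vehicle libraries (SD, n = 11, 12, 12 and 12), and its pooled PFOS log2 fold change was -0.01 ± 0.06 with an edgeR adjusted p of 0.916. Without PFOS library 31 the PFOS mean was 4523 ± 453 CPM (SD, n = 11) and the pooled value -0.01 ± 0.06, with an adjusted p of 0.965. The hypothalamic Gh1 count followed the library's own total, with r = 0.93 and rho = 0.96 (permutation p = 1e-05, adjusted 3.75e-05 over 15 relations, n = 47). The count of any gene with a steady share of the library would do so. Hypothalamic Gh1 CPM, in which the total is already divided out, did not follow that of the pituitary library with the same number (r = 0.04, rho = 0.12, permutation p = 0.786 for r). Without PFOS library 31 these correlations were r = 0.93 and rho = 0.95 with the own total, and r = 0.03 and rho = 0.11 with the pituitary library (n = 46). Over summed counts, Gh1 exceeded Prl 18.5-fold in hypothalamus, 10.8-fold in liver and 31.4-fold in thyroid, against 5.48-fold in pituitary.

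In the liver the Gh1 counts followed another library. Pituitary and liver libraries sat on different plates but used the same 48 barcodes, liver library n having the barcode of pituitary library n. Across all 48 liver libraries, those left out included, the Gh1 count correlated with the Gh1 count of the pituitary library of the same barcode with r = 0.89 and rho = 0.90 (permutation p = 1e-05, the smallest possible, adjusted 3.75e-05), and r was 0.87 without the 2 libraries farthest from the median. Against the liver library's own total r was 0.002 (permutation p = 0.989) and rho 0.31 (permutation p = 0.0341, adjusted 0.0512). The relation with the pituitary count was as strong in the 37 kept libraries, with r = 0.90. In these 37 alone the relation with the liver library's own total was not computed, and the part of depth there was not tested. Liver Prl counts also correlated with the Prl count of the pituitary library of the same barcode, with r = 0.66 and rho = 0.60 over 48 libraries (permutation p = 1e-05). They followed the liver library's own total as well by rank, with r = 0.28 (permutation p = 0.0593, adjusted 0.127) and rho = 0.45 (permutation p = 0.00159, adjusted 0.00341).

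The 11 liver libraries left out for depth held 32 to 382 Gh1 counts with a median of 51, and the 37 kept ones 11 to 114 with a median of 50. Combination liver library 48, with only 28558 counts in all, had 382 Gh1 counts, the most of any liver library, and pituitary library 48 had the most Gh1 counts of any pituitary library. Per 100 pituitary Gh1 counts of the same barcode, the liver libraries held 0.0125 to 0.148, with a median of 0.0332. As a level, liver Gh1 averaged 126 ± 103 CPM over the kept libraries and reached 468 CPM in vehicle library 2, which held 106742 counts. Whether reads passed between the plates through shared barcodes was not tested.

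**Figure D5:**
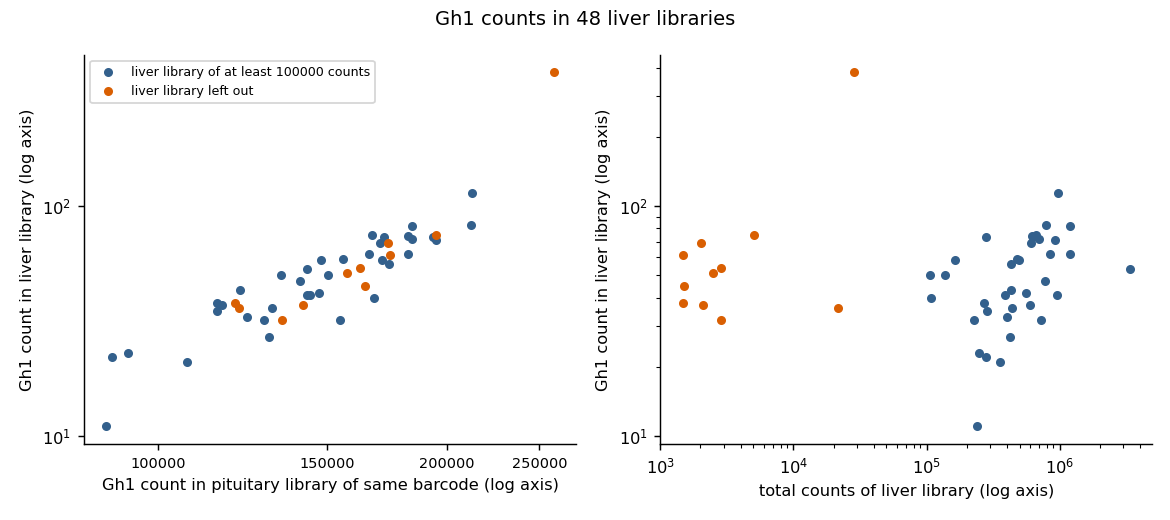
Gh1 counts of the 48 liver libraries (vertical log axes) against the Gh1 count of the pituitary library with the same barcode (left, log axis) and against the liver library's own total (right, log axis); orange points are liver libraries under 100000 counts. Over all 48 libraries the points follow the pituitary count (r = 0.89, rho = 0.90) more closely than the liver total (r = 0.002, rho = 0.31).

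The thyroid, on the same plate as the liver but with the barcodes of the hypothalamus, held far less. Gh1 averaged 7.37 ± 13.3 CPM (SD, n = 46), or 0.00253% of its pituitary mean, and its 220 counts were found in 41 libraries. Vehicle libraries 5 and 12 held 73 and 34 of them, or 70.1 and 64.1 CPM, while the next highest had 15.2 CPM. The thyroid Gh1 count had r = 0.21 and rho = 0.34 with the Gh1 count of the hypothalamus library of the same barcode (permutation p = 0.13 and 0.018, adjusted 0.228 and 0.0337, n = 48), and r = 0.41 with its own total (adjusted p = 0.0413). Prl had 7 counts, Pou1f1 6, Ghrhr 1 and Drd2 2 over all 46 thyroid libraries. In the 37 kept liver libraries Pou1f1 and Drd2 had 2 counts each and Ghrhr had 0, which allows up to 0.134 CPM over their summed counts.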

How the data were processed

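Whole-number counts per gene and library, with no normalization apparent from the values, were deposited by the authors for 17483 genes and 192 libraries of 4 tissues. BWA 0.7.4.4 and the build rn6 are named in the submitters' processing notes without a role, and the tables are named as counts of molecular identifiers; how reads were assigned to genes is not given in the sources used here. Libraries were grouped by the labels' tissue and treatment, and those under 100000 counts were left out. For each tissue a single fit held the 4 treatments (R 4.3.3; edgeR 4.0.16 with filterByExpr at a minimum count of 10, TMM scaling, robust quasi-likelihood F test, Benjamini-Hochberg threshold 0.05). "Called", "passed", "rose" and "fell" refer to that threshold, and SE is the size of the log2 fold change over the square root of F. A pooled effect is the mean of a compound's effect with and without the other. Alternatives were DESeq2 1.42.0, other size factors, no filter, the well column, depth as a covariate, a minimum of 500000 counts, all libraries kept, libraries of usual barcode GC content, and Gh1 and Prl kept out of library sizes. Leaving out the deepest pituitary library, or the hypothalamus library lowest in hypothalamus markers, was added after the data were seen. Correlations used two-sided permutation tests with 100000 resamples, on deviations from group means within the pituitary. Promoter sequences are from RefSeq (GRCr8), used for sequence and names only. The steps were tested on simulated data. The 5 genes and the gene lists were chosen with earlier results of these data known. Named list genes were those passing (up to 4 by p), set ligands and liver targets, and the 5 genes most alike. Gal, Avp, Hnf4a, Cyp2c12, Cyp2a2 in the pooled effect, the sparse receptors, Cyp2a1, Cyp2c13, Trhr and Gnas were named after their values were seen. Some genes that these rules pick are not reported here.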

Additional observations from a re-analysis of the deposited data

Results flagged for a closer look

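Among 10 groups of 4 to 10 libraries tested for a library far from the others, 3 were flagged, each for 1 gene in 1 liver treatment. Chance marks about 1 group in 20. The Gh1 and Prl flags of PFOS library 35 share that library, so the flags are not separate events and cannot be set against that rate. Gh1 stood at 371 CPM and Prl at 46.4 CPM in PFOS liver library 35, where the group medians were 92.6 and 10.01 CPM (n = 8). Prl stood at 43.5 CPM in combination liver library 45, where the group median was 6.35 CPM (n = 10). These values rest on 40 Gh1 and 5 Prl counts in library 35 and on 6 Prl counts in library 45. Both libraries were shallow, with 107856 and 137827 counts in all. The part of depth in these values was not tested.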

How the results depend on the processing

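None of the 5 genes passed in any of the 7 pituitary comparisons, in the edgeR fit or the 9 alternatives run there. Log2 fold changes of up to 0.22 in size turned their sign in 27 values, none of them past the threshold, and kept it in 288, and the cause was not tested. At a minimum of 500000 counts, which left 7 combination, 7 PFOS, 9 vancomycin and 3 vehicle libraries, the log2 fold changes were 0.22 for Gh1 and -0.11 for Drd2 under PFOS against vehicle, 0.13 for Gh1 and 0.26 for Ghrhr under vancomycin, 0.36 for Ghrhr under the combination, 0.029 for Drd2 under PFOS in vancomycin-treated rats, -0.39 for Gh1 and 0.14 for Drd2 in the interaction, 0.030, 0.10, 0.047 and -0.042 for Gh1, Pou1f1, Ghrhr and Drd2 in the pooled PFOS effect, and 0.31 for Ghrhr in the pooled vancomycin effect. With depth as a covariate they were 0.082 for Gh1 and -0.074 for Prl under PFOS, -0.12 for Prl under the combination, and -0.10 and 0.032 for Gh1 in the interaction and the pooled PFOS effect. With libraries of usual barcode GC content they were 0.013 and -0.041 for Gh1 under PFOS and in the interaction and -0.0035 for Drd2 in the pooled PFOS effect. Without the deepest library they were 0.063 for Gh1 and 0.039 for Drd2 under PFOS in vancomycin-treated rats and 0.017 for Gh1 in the pooled PFOS effect. The Gh1 interaction was -0.029 without the filter and -0.0013 with Gh1 and Prl kept out of library sizes, and Drd2 in the pooled PFOS effect was -0.013 with the well column.

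Without the hypothalamus library lowest in hypothalamus markers, 1 ligand gene passed under the combination and 2 in the pooled PFOS effect, against 0 with it. Counts of all genes called moved by over 1.5 times in 33 values and by less in 82. In pituitary a minimum of 500000 counts gave 0 for PFOS, vancomycin and the combination and 1 for the pooled PFOS effect, usual barcode GC content gave 0, 0, 0 and 4 and 2 for PFOS in vancomycin-treated rats, depth as a covariate gave 0 for vancomycin and 19 for the combination, and no filter gave 0 for vancomycin. In hypothalamus PFOS and the combination gave 165 and 356 without the filter, 172 and 245 at a minimum of 500000 counts and 2 and 36 with depth as a covariate, which gave 297 for the pooled PFOS effect; usual barcode GC content gave 305 for the combination. In liver PFOS, the combination and the pooled PFOS effect gave 6, 7 and 19 at a minimum of 500000 counts, 5, 7 and 43 with usual barcode GC content and 11, 12 and 68 with all libraries kept; no filter gave 14 for PFOS and 50 for the pooled PFOS effect, and DESeq2 46 for the combination.

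Between genes, the correlation of Gh1 with Prl was -0.27 with the 2 hormones out of the CPM denominator and -0.28 (n = 26) at a minimum of 500000 counts, and neither passed. With that denominator Gh1 had r = 0.40 with Pou1f1 and 0.39 with Drd2, and both then passed by r (permutation, adjusted p = 0.032 each). Neither passed by rank, with rho = 0.29 (adjusted p = 0.163) for Pou1f1 and 0.23 (adjusted p = 0.227) for Drd2. Without the 2 farthest libraries r was 0.15 for Pou1f1 and 0.23 for Drd2. Prl had -0.088 with Pou1f1 and -0.016 with Ghrhr. At the higher minimum, Gh1 and Pou1f1 had 0.029, Prl had -0.083 with Pou1f1 and -0.20 with Ghrhr, and Ghrhr and Drd2 had -0.10. No paired analysis was possible because the treatments compared within a tissue share no library number. Drd2 and Ghrhr are limited by depth, and liver by its 37 kept libraries.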
